A study of Homo sapiens with 9 samples.

Results

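The messages of 10 heat shock and chaperone genes were followed in HEK293T cells, an established human embryonic kidney line, among the RNAs pulled down with the poly(A) binding protein of the nucleus (PABPN) or that of the cytoplasm (PABPC). The genes were chosen by symbol (HSPA1A, HSPA1B, HSPA8, HSP90AA1, HSP90AB1, HSPH1, HSPD1, HSPE1, DNAJB1 and DNAJA1), and each was found once among the 51105 genes that both deposited tables list. Wildtype, otherwise untreated cells were crosslinked with 0.1% formaldehyde for 10 min. In each of 3 biological replicates, 1 lysate was divided for RNA immunoprecipitation (RIP) with an antibody against endogenous PABPN or PABPC, so the 3 groups of input, PABPN RIP and PABPC RIP share their cells. No heat shock was part of the design. The label of cytosolic chaperones holds for 8 of the genes. HSPD1 and HSPE1 are nuclear genes whose proteins form the chaperonin of the mitochondrial matrix.

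Chaperones bind unfolded proteins and release them in cycles driven by ATP. HSP70 proteins take their clients from J-domain proteins, exchange factors such as HSP110 open them again, and HSP90 acts later on kinases and receptors. Heat shock factor 1 raises the inducible members by binding heat shock elements in their promoters, while constitutive members are made at high levels in growing cells. Their messages carry poly(A) tails. PABPN is found mainly on tails in nuclei and PABPC mainly in the cytoplasm, although both proteins can shuttle.

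What could be measured was the mean of normalised counts over 6 libraries, 3 of a RIP and 3 of input, in each of the 2 tables. These means are the authors' own. Since both tables hold the same input libraries, the means were put on 1 scale by what a single read in each input library is worth (a factor of 1.17, from 1.16 to 1.18 over the 3 input libraries). The ratio of the PABPC and input mean to the PABPN and input mean is called the pooled ratio here. It exceeds 1 only if the PABPC RIP mean exceeds the PABPN RIP mean, and because input enters both sides, the fold between the RIPs is at least as large as the pooled ratio. The pooled means hold no spread between replicates, so no difference below has a replicate error or a test. Counting error alone was between 0.673% and 3.01% of a member's pooled ratio (95% Poisson limits, each normalised count taken as 1 read). The spread of the scale over the 3 input libraries was 1.60%. Neither covers the error between replicates. Scalings that do not rest on the input libraries moved the ratios further, as given below.

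The assay selects RNAs through poly(A) binding proteins, so the 3′ ends of the 10 messages are shown first. A poly(A) signal, AATAAA or ATTAAA, stood within the last 50 bases of the canonical transcript (GENCODE release 44, hg38) in 7 of the 10, against 82.1% of the 12450 protein coding genes compared. No such hexamer lay in that window of HSP90AA1, HSPH1 or DNAJA1. These windows of 30 bases carry the hexamer in capitals.
HSPA1A, chr6:31817912-31817941, plus strand: tacttcaaagtaAATAAActttaaaattca
HSPA1B, chr6:31830225-31830254, plus strand: ttaaatatgaaaAATAAAatgttaaacttt
HSPA8, chr11:123057502-123057531, minus strand: tgcaatgtcttaAATAAAactatttaaaat
HSP90AB1, chr6:44253846-44253875, plus strand: taaagtatgcaaAATAAAgaatatgccgtt
HSPD1, chr2:197486589-197486618, minus strand: caacctttgtgtAATAAAaatttgtttaaa
HSPE1, chr2:197503419-197503448, plus strand: taaacacttccaAATAAAaatatgtaaatg
DNAJB1, chr19:14514775-14514804, minus strand: aagtgcgacagcATTAAAgactgatgctaa
The hexamer ends between 12 and 25 bases before the annotated transcript end. HSPA1A and HSPA1B, whose coding regions are nearly the same, differ in this stretch.

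All 10 messages had a pooled ratio above 1, so each was higher in the PABPC RIP than in the PABPN RIP on this scale. The ratio exceeded 1.5 in 9 of the 10 and fell below its reciprocal in none. Among the 14581 genes with a mean above 50 in both tables, 23.6% exceeded 1.5 with PABPC and 18.1% lay beyond the same fold toward PABPN. Among the 12452 protein coding genes these shares were 26.5% and 12.1%. The median of the 10 was 0.94 on the log2 scale, or 1.91-fold, while that of all genes was -0.035 and that of protein coding genes was 0.060. Even the lowest of the 10, HSPH1, lay at the 75.2 percentile of all genes and the 72.1 percentile of protein coding genes. The split over all genes depended on the scale, with 3434 genes beyond 1.5-fold toward PABPC and 2637 toward PABPN, but 2432 and 4682 for the means as deposited and 2698 and 4158 with each table divided by its sum. Those scalings left 7 and 8 of the 10 messages above 1.5 and moved the median of all genes to -0.26 and -0.20.

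**Figure D1:**
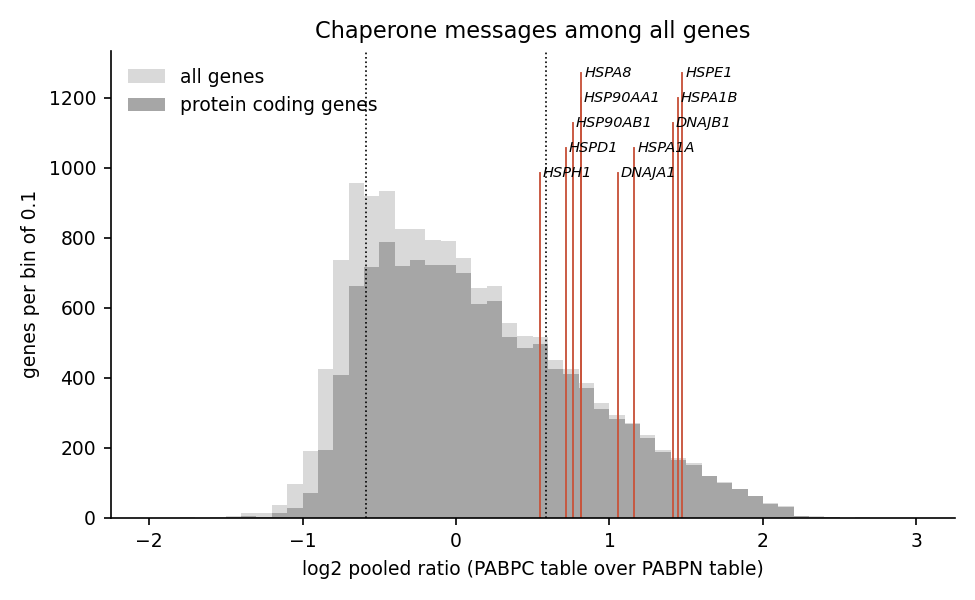
Number of genes (y axis) per bin of 0.1 in the log2 pooled ratio (x axis) for all 14581 genes compared and for the 12452 protein coding ones, with a red line at each chaperone message and dotted lines at 1.5-fold in either direction. HSPH1 lies just short of the upper dotted line at 0.54 and the other 9 lie beyond it, up to 1.47 for HSPE1.

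The HSP70 messages were examined by role, the inducible ones first. HSPA1A (6:31815543-31817946, plus strand) encodes an inducible HSP70, in a single exon without introns. PABPN RIP and input gave a mean of 3840, while PABPC RIP and input gave 7342 as deposited or 8588 on the common scale, for a pooled ratio of 2.24. HSPA1B (6:31827738-31830254, plus strand), its neighbour and near copy, had 3805 and 8852 as deposited, 10354 on the common scale, and a pooled ratio of 2.72. The pair had nearly equal means with PABPN and input (HSPA1B over HSPA1A 0.991) and unequal ones with PABPC and input (1.21). Their separate values are uncertain, because 73.6% of the 75-base windows of HSPA1A and 70.2% of those of HSPA1B occur elsewhere in the primary assembly, and each of these windows is in the other gene. For these libraries the methods name no setting for reads that map to several places, which the counter leaves out by default, and whether the default was kept is not stated. Summed over the pair, a value added after seeing the data, the pooled ratio was 2.48.

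HSPA8 (11:123057489-123063230, minus strand) encodes the constitutive HSP70. Its mean was 18752 for PABPN RIP and input and 28225 for PABPC RIP and input, or 33017 on the common scale. Its pooled ratio of 1.76 was lower than that of either inducible gene. HSPH1 (13:31134973-31162388, minus strand) encodes an HSP110, an exchange factor of HSP70. With 3361 and 4191 as deposited, 4902 on the common scale, it had the lowest pooled ratio of the 10, at 1.46. It was also the longest message by the deposited length, 8391 bases, with 18 exons in its canonical transcript.

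The J-domain proteins hand clients to HSP70. DNAJB1 (19:14514769-14560391, minus strand), an inducible one, had the lowest means of the 10. They were 1049 for PABPN RIP and input and 2387 for PABPC RIP and input, or 2793 on the common scale. Its pooled ratio was 2.66, among the highest. DNAJA1 (9:33025273-33039907, plus strand) had 3016 and 5355 as deposited, 6264 on the common scale, and a pooled ratio of 2.08.

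The cytosolic HSP90 pair had means above the 98th percentile of all genes in both tables. HSP90AA1 (14:102080742-102139699, minus strand), the more inducible of the pair, had the highest means of the 10, at 23682 and 35571 as deposited and 41610 on the common scale, with a pooled ratio of 1.76. HSP90AB1 (6:44246166-44253888, plus strand), the constitutive form, had 18817 and 27291, 31924 on the common scale, and a pooled ratio of 1.70. The counting limits of HSP90AB1 (1.68 to 1.71) lay below those of HSP90AA1 (1.75 to 1.77), and the replicate error that would test this difference is not known. HSP90AA1 and HSPA8 had overlapping limits, and no order between them can be read.

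The mitochondrial chaperonin pair lies head to head on chromosome 2. HSPD1 (2:197486584-197516737, minus strand), the large subunit, had 14864 and 20883 as deposited, 24428 on the common scale, and a pooled ratio of 1.64. HSPE1 (2:197500140-197503449, plus strand), the small co-chaperonin, had 1584 and 3763, 4401 on the common scale, and the highest pooled ratio of the 10 at 2.78. Its counting limits (2.71 to 2.85) overlapped those of HSPA1B (2.68 to 2.76) and DNAJB1 (2.58 to 2.74). Without a replicate error, no order among these 3 can be read. HSPE1 lies within the annotated span of HSPD1 on the other strand, the authors removed overlapping stretches before counting, and the strand setting of their count is not given in the sources used here.

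**Figure D2:**
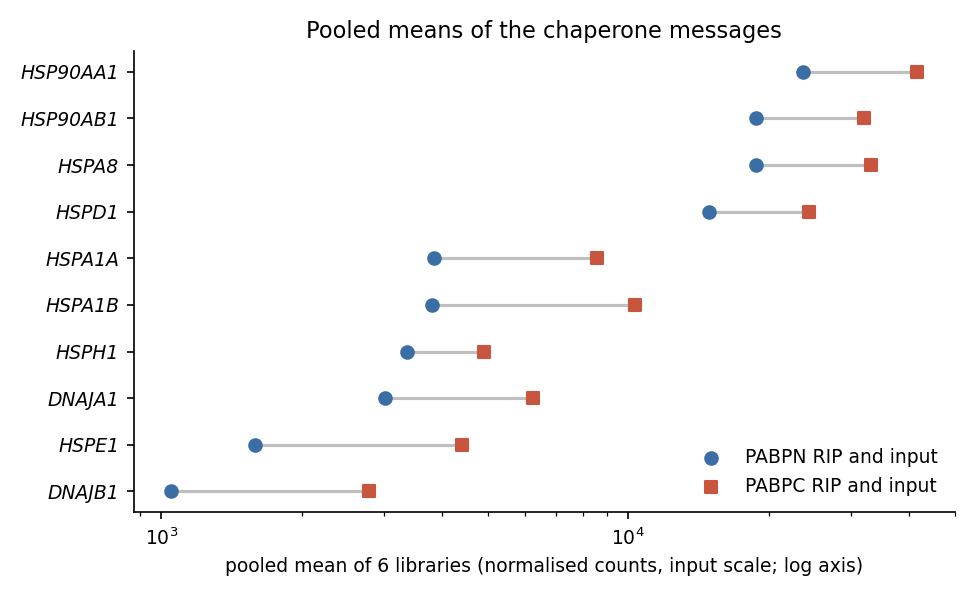
Pooled mean of normalised counts over 6 libraries (x axis, log scale, on the scale of the PABPN table) for each chaperone message (y axis), with circles for PABPN RIP and input and squares for PABPC RIP and input. The square lies to the right of the circle in each row, by 1.46-fold in HSPH1 and by 2.78-fold in HSPE1.

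The pooled means also bound each RIP against input. A pooled ratio above 2 can arise only if the PABPC RIP mean exceeds the input mean, by at least the ratio minus 1. With the lowest of the 3 input scales, the PABPC RIP mean was at least 1.76 times input for HSPE1, 1.71 times for HSPA1B, 1.65 times for DNAJB1, 1.22 times for HSPA1A and 1.07 times for DNAJA1. Over all genes, 12.2% had a pooled ratio above 2. The other 5 messages reached no such bound by themselves. Their PABPC RIP mean exceeded input unless the PABPN RIP mean was below 14.2% of input for HSPA8, 14.5% for HSP90AA1, 18.6% for HSP90AB1, 22.4% for HSPD1 and 37.9% for HSPH1, on the same lowest scale. The PABPN RIP against input could not be bounded on its own, so whether any of the 10 was enriched with or depleted from PABPN cannot be told from the means.

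**Figure D3:**
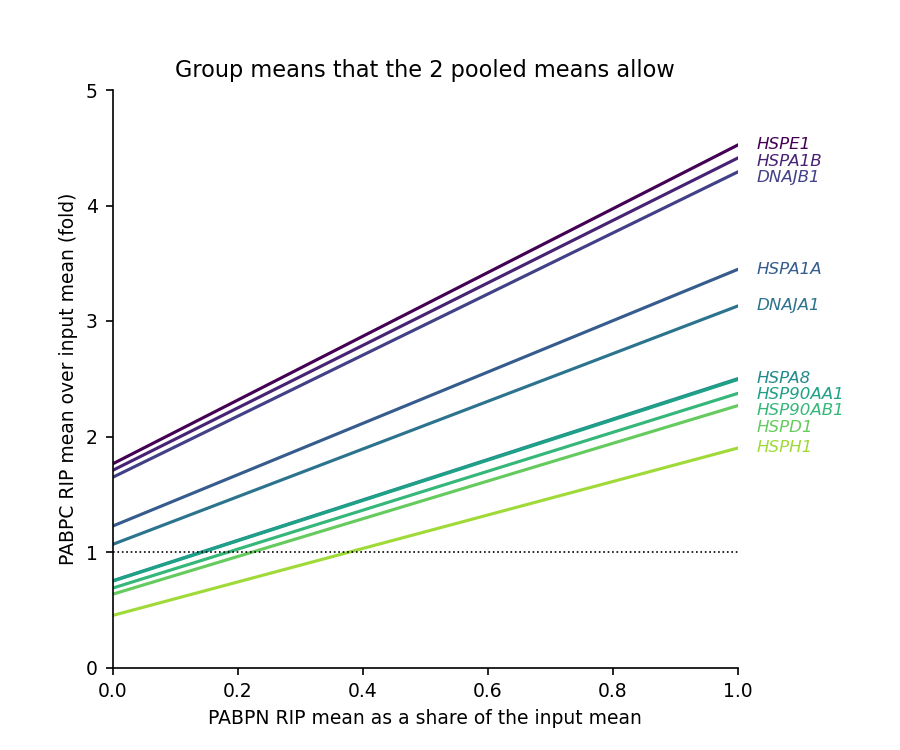
PABPC RIP mean over input mean (y axis, fold) that the pooled means require for each PABPN RIP mean given as a share of input (x axis, drawn from 0 to 1, although larger shares are possible), 1 line per message on the lowest input scale and a dotted line where PABPC RIP equals input. HSPE1, HSPA1B, DNAJB1, HSPA1A and DNAJA1 stay above the dotted line from the left edge on, while HSPH1 crosses it at 37.9% of input.

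Levels were compared between the genes only per length, as the mean of PABPN RIP and input per kilobase of the deposited length. HSP90AB1 was highest with 6314 normalised counts per kilobase, followed by HSP90AA1 with 4646, HSPA8 with 3867 and HSPD1 with 3605. HSPA1A had 1597, HSPA1B 1512 and DNAJA1 1130. HSPE1 had 869, HSPH1 401 and DNAJB1 288. Intronic reads were counted too, while the length is exonic, and the longer exon union of release 44 lowered HSPD1 to 1948 and DNAJB1 to 128. For HSPA8 the deposited length was 4849 bases and the canonical transcript 2264. For HSPE1 they were 1823 and 557, and for HSP90AB1 2980 and 2555. The order above therefore holds for the deposited length, and another length can change it. The 4 messages with the highest values (HSP90AA1, HSP90AB1, HSPA8 and HSPD1) were all among those with a pooled ratio below 2. The place of the HSPA1 pair in this order is uncertain.

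Within the 10, the pooled ratio fell with the deposited length (Spearman -0.782, n = 10 genes that share all libraries). The same coefficient was -0.699 for coding length and -0.456 for intron length, taken as the gene span outside all annotated exons. That intron length can far exceed the canonical one, with 53861 against 3075 bases in HSP90AA1 and 37435 against 1387 in DNAJB1. Which length goes most closely with the ratio therefore cannot be read from these coefficients. They describe 10 chosen genes. Over all genes the relation of the pooled ratio to length was -0.265, and over protein coding genes -0.443. The pooled ratio of the 10 stood at -0.539 against the mean in the PABPN table, which itself is the divisor of the ratio, and at -0.0170 over all genes.

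Heat shock elements, the feature that the inducible genes are known for, were then searched in RefSeq promoter windows (GRCh38.p14, 250 bases before to 50 after the start site), where all 10 genes had an entry. The triple element GAANNTTCNNGAA, on either strand (TTCNNGAANNTTC), was found in 5 of the 10 and in 0.483% of the 10762 genes compared that had a window. It was present in 0.490% of all 35116 windows. The shorter GAANNTTC or TTCNNGAA, which the triple element contains, was found in 8 of the 10 and in 13.9% of the genes compared. One window for each gene with the triple element is shown with the element in capitals, followed by the shorter element of the HSPA1 pair. For DNAJA1 the element lies after the start site used for the search, and for the other genes shown it lies before it.
HSPA8, chr11:123062170-123062199, minus strand: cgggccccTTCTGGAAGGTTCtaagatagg
HSP90AA1, chr14:102087111-102087140, minus strand: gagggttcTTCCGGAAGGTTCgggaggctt
HSP90AB1, chr6:44247823-44247852, plus strand: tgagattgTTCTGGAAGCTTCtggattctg
HSPD1, chr2:197500059-197500088, minus strand: attttctgGAAAGTTCTGGAAccgagcgag
DNAJA1, chr9:33025268-33025297, plus strand: gccgggcgGAACTTTCCAGAAcgctcggtg
HSPA1A, chr6:31815426-31815455, plus strand: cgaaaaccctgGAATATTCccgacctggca
HSPA1B, chr6:31827622-31827651, plus strand: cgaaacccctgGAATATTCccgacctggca
The pooled ratio of the genes with the triple element ran from 1.64 (HSPD1) to 2.08 (DNAJA1). Of the others, HSPH1 stood below this range at 1.46. HSPA1A (2.24), DNAJB1 (2.66), HSPA1B (2.72) and HSPE1 (2.78) stood above it. Whether the element bears on the ratio was not tested. HSPH1, with the lowest ratio, and HSPE1, among the highest 3, lacked the letters of either element in these windows. The search took exact letters only, so elements with other letters or outside the windows were missed. A gene without a match is therefore not shown to lack heat shock elements. The element shown for HSPD1 lies between the canonical transcripts of this head to head pair, which begin at 197499840 (HSPD1) and 197500379 (HSPE1), and outside the window of HSPE1.

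Other genes of protein folding were taken from 7 lists, of which 79 of 82 genes had means above 50 in both tables. HSPA6, DNAJA4 and CRYAB did not. The pooled ratio exceeded 1.5 in 50 of the 79 and fell below its reciprocal in 1, with a median of 1.71. The shares beyond these limits were 23.6% and 18.1% over all genes, and 26.5% and 12.1% over protein coding genes. All 8 subunits of the chaperonin CCT, which folds actin and tubulin, exceeded 1.5, from 1.71 for CCT8 to 2.26 for CCT7 (median 1.93). Of the 6 prefoldin subunits, which deliver clients to CCT, 5 did, from 1.47 for PFDN1 to 3.01 for PFDN5 (median 2.05). Endoplasmic reticulum chaperones exceeded it in 11 of 14 cases (median 1.86), with the lowest ratio in DNAJC3 (1.13) and the highest in SDF2L1 (3.46).

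The lists around HSP90 and HSP70 hold mostly their co-chaperones. They also hold TRAP1, the HSP90 of mitochondria, and the HSP70 family members HSPA2, HSPA6, HSPA9, HSPA13 and HSPA14. Of the HSP90 list, 7 of 12 exceeded 1.5 (median 1.62), from FKBP5 at 1.04 to FKBP4 at 2.45. Of the HSP70 list, 10 of 15 did (median 1.61), from HSPA4L, a relative of HSPH1, at 1.21 to the ubiquitin ligase STUB1 at 2.66. Other J-domain proteins exceeded it in 6 of 17 cases, with a median of 0.32 on the log2 scale. DNAJB4 had the lowest ratio of that list at 0.693 and DNAJB5 the highest at 2.34. The list of heat shock factors and small heat shock proteins also holds HSBP1, which is neither. In this list 3 of 7 exceeded 1.5, with a median of 1.48, and none of these 3 was a heat shock factor. HSF4, a heat shock factor, stood at 0.580, the 1 gene of all lists below the reciprocal of 1.5, and HSBP1, which binds heat shock factor 1, at 3.62.

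**Figure D4:**
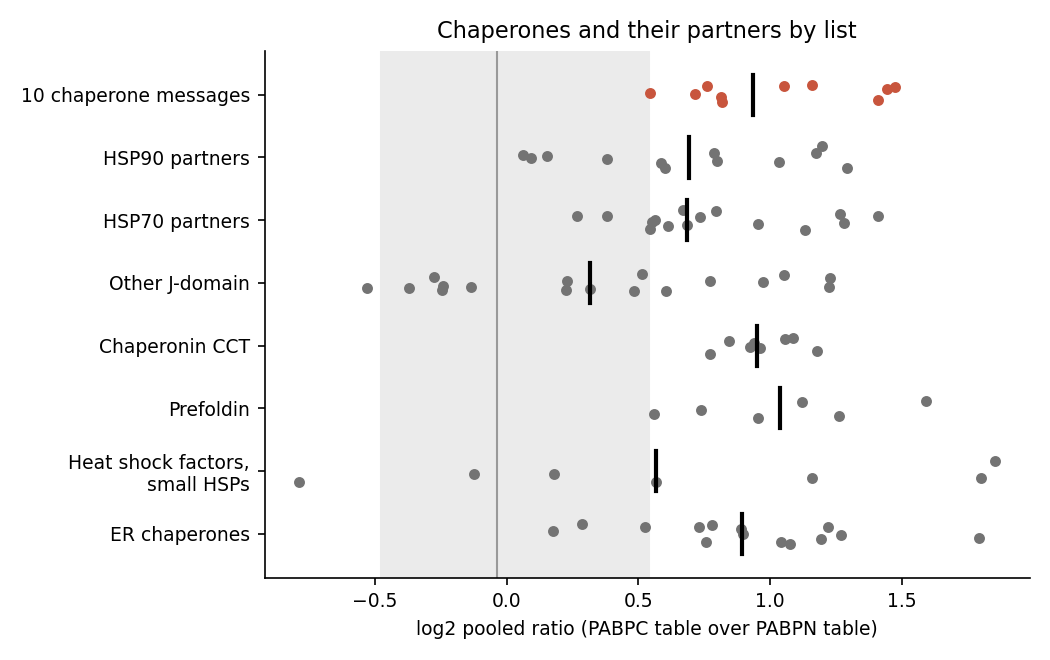
Log2 pooled ratio (x axis) of each gene with means above 50 in both tables, for the 10 chaperone messages and the 7 lists (y axis), with black bars at the medians, a grey band from the 25th to the 75th percentile of all genes and a grey line at their median. The 10 messages lie from 0.54 to 1.47, all beyond the upper edge of the band at 0.54, while the other J-domain proteins lie from -0.53 to 1.23.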

How the data were processed

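Total RNA from 9 libraries (3 input, 3 PABPN RIP, 3 PABPC RIP) was depleted of ribosomal RNA and sequenced as 75-nt single-end reads. The authors aligned reads to hg38 with STAR and counted introns and exons together with featureCounts 2.0.2 (minimum overlap 20) on an annotation derived from GENCODE release 34, without overlapping stretches. The signal deposited by the authors in each table is baseMean, the mean over 6 libraries of counts divided by DESeq2 size factors. The fold changes, standard errors, statistics and p-values in the same tables are the authors' own comparisons and were not used. Values per library were not analysed here. Groups came from the sample titles.

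Of repeated identifiers (123 per table) the first row was kept. Means summed to 45539243 and 43715662 per library in the PABPN and PABPC tables, which is the average normalised depth. The most frequent low values gave 6 size factors per table, from 0.895 to 1.13 and from 0.783 to 1.22. Under these, every low mean (9182 and 9314 genes with a value above 0 and under 1) equalled a sum of whole reads (tolerance 1e-06), against 0.145% and 0.110% of random values. Value pairs present in both tables identified the input libraries and set the scale.

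Genes were compared with means above 50 in both tables, and a fold of 1.5 was used. All 10 genes are named, and from each further list the genes with the highest and lowest ratio, plus those that could not be measured. The genes and lists were chosen with earlier results of these data known. The deposited length had a Spearman correlation of 0.947 with the exons of release 44 over 14551 genes. Windows of 75 bases were matched exactly against 194 sequences of hg38 without alternate loci, outside splice junctions. Python 3.11.15, pandas 2.3.3, numpy 2.4.6 and scipy 1.17.1 were used.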

Additional observations from a re-analysis of the deposited data

How the results depend on the processing

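The pooled ratios of the 10 messages stayed above 1 under the 6 other scalings and centrings (60 values, lowest log2 ratio 0.32). The 5 settings of filter, repeated rows and genes compared left each message's own ratio as it was and bear only on the counts. Their median log2 ratio of 0.94 became 0.97 when centred on the median of all genes, 0.71 for the means as deposited and 0.77 with each table divided by its sum. A fold of 2 left 5 of the 10, and the lower fold tried took in all 10. The 6071 genes beyond 1.5-fold became 9824 at that lower fold, 1947 at a fold of 2 (1776 toward PABPC and 171 toward PABPN) and 16800 without a filter on low values. Other settings kept the count of messages between 7 and 9. Summing HSPA1A and HSPA1B gave a log2 ratio of 1.31, against 1.16 and 1.44 apart. The length of release 44 changed the level per kilobase of HSPD1 and DNAJB1 among the 10. Replicates were not left out in turn and no edgeR or DESeq2 fit was run, since the means pool 6 libraries. An edgeR fit had been planned only in case counts per library were present. No paired analysis was possible because the columns used carry no replicate. How far replicates differ was not examined, and depth limits the values only by the counting error given above.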
